A study of Mus musculus with 16 samples.

Results

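Liver gene expression was compared between mice fed a high-fat diet (HFD) and mice fed regular chow. The comparison took the 8 arrays of 1 chip, 4 of HFD mice and 4 of chow mice, out of 16 arrays in the series. Every animal was a female C57BL/6J mouse, an inbred laboratory strain, and the RNA was total RNA from frozen liver. None of these 8 mice is labelled as treated, since nicotinamide mononucleotide went only to a group on the other chip. The labels give neither the age of the mice, the composition and duration of the diet, nor the hour of collection, and each sample is labelled as 1 mouse, with no pooling mentioned. The same 4 HFD mice, by the animal numbers in the column names, were arrayed again on the other chip, and these second arrays are shown beside the first and entered no diet mean. They entered a fit only in 2 alternative settings, which took the spread between arrays from all 16.

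The livers read as liver. All 12 hepatocyte markers tested were detected on all 8 arrays, among them Ttr, the thyroxine carrier transthyretin, at 13.43, 13.69, 13.75 and 13.62 in HFD livers and 13.75, 13.61, 13.82 and 13.73 in chow livers on the log2 scale. The probe for serum albumin, Alb, chosen after its values were seen, gave only 5.39, 5.43, 5.49 and 5.75 in HFD livers and 6.08, 5.73, 5.80 and 5.93 in chow livers, so a level on these arrays is a property of the probe as well as of the transcript. None of the 5 adipocyte markers with a named probe was detected. Detected probes numbered 9626 to 10569 per HFD array and 9521 to 10048 per chow array, and the deposited median signal was 36.5 to 41.4 in HFD arrays and 35.1 to 38.5 in chow arrays. Levels below are log2 of the background-corrected, normalized signal, always for mice 1 to 4 in that order, changes are HFD minus chow, and levels of different probes are not comparable.

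The liver makes, stores, burns and exports lipid. Cholesterol synthesis is governed by SREBP-2, a transcription factor held in the endoplasmic reticulum by SCAP and the INSIG proteins while sterols are plentiful, and released to the nucleus when they run low. Surplus fatty acid is stored as triglyceride in droplets coated with perilipins, and PPAR gamma raises that storage programme in fatty liver. Hepatocytes also carry out the urea cycle, amino acid breakdown, detoxification and bile acid synthesis, beside resident macrophages, the Kupffer cells, and endothelial and stellate cells.

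Of 6559 genes tested, 421 (6.42%) differed between HFD and chow livers at an adjusted p under 0.05 (limma with Benjamini-Hochberg adjustment over all genes tested). Of these, 211 (3.22%) were higher and 210 (3.20%) were lower in HFD livers. Their median absolute change was 0.61, the smallest was 0.29, and 80 changed by more than 1, of which 51 were higher and 29 lower. The median change of all genes was -0.01, and the median SD between mice was 0.14 in either diet. The 4 HFD arrays and the 4 chow arrays did not overlap for 1005 genes (15.3%), and for 403 of the 421. "Rose", "fell" and "called" below mean past this threshold. Each group's count of calls below is to be read beside the shares over all genes, 6.42% called, 3.22% higher and 3.20% lower.

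The count of calls rested on few mice. It lay between 113 (without HFD mouse 3) and 507 (without HFD mouse 4) with 1 HFD mouse left out, and between 97 (without chow mouse 4) and 337 (without chow mouse 3) with 1 chow mouse left out. Of the 192 called genes named below, 53 were called whichever single mouse was left out, and 139 were not. Where a call is given below as lost without several mice, each was left out alone. HFD mice 2 and 3 stood apart in genes of myeloid cells, as described below. Without both, a setting chosen after the data were seen, 79 genes were called, 41 higher and 38 lower.

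**Figure D1:**
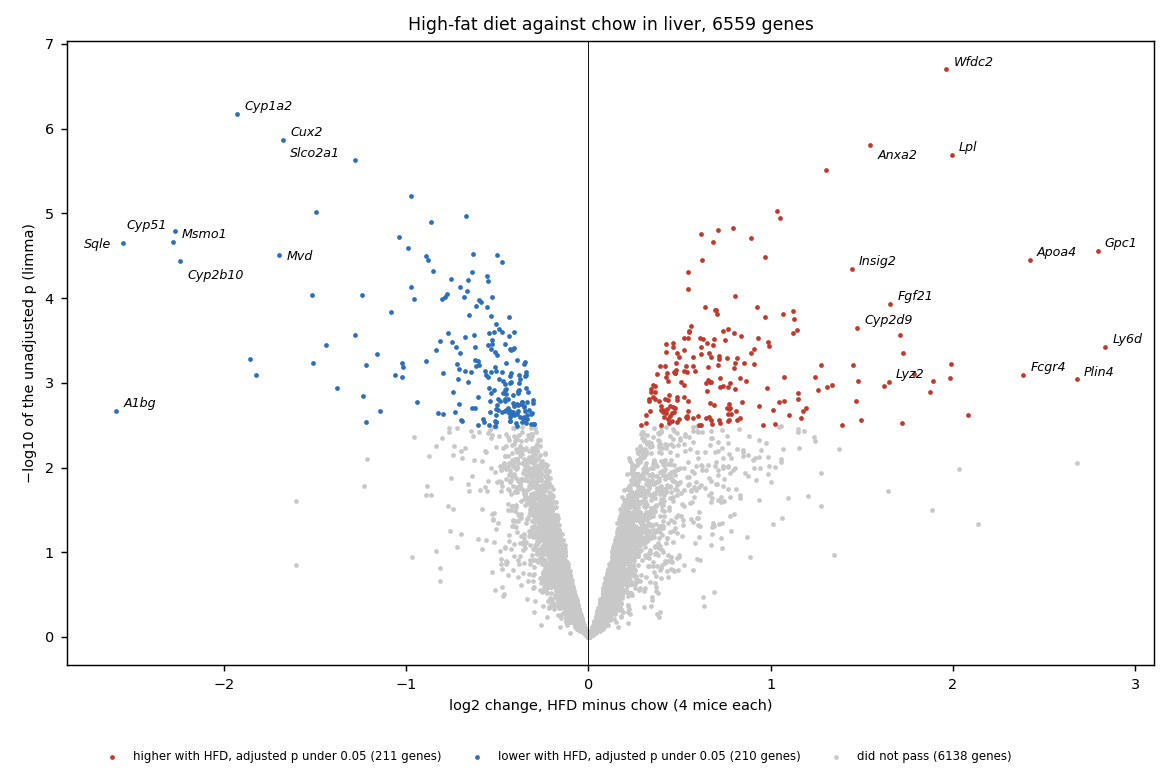
Each point is 1 of the 6559 genes, placed by its log2 change, HFD minus chow (x axis), and the -log10 of its unadjusted p from limma (y axis), with the 211 higher and 210 lower genes coloured and selected genes labelled. Wfdc2, Lpl and Anxa2 lie high on the right, and Cyp1a2, Cux2 and Sqle on the left.

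Transcripts of cholesterol synthesis enzymes were lower in HFD livers. Of 15 enzymes of the pathway tested, 10 fell, none rose and all 15 had a change below 0, with a median of -1.14 against -0.01 for all genes. The mean of the 15, set against the chow mean, was -2.02, -0.72, -0.92 and -1.38 in HFD mice 1 to 4 and 0.23, -0.11, 0.00 and -0.13 in chow mice 1 to 4. HFD mouse 1 was lowest, HFD mice 2 and 3 were least changed, and no HFD mouse reached the chow range.

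Sqle, squalene epoxidase and a rate-limiting step, stood at 4.31, 6.07, 5.42 and 4.58 in HFD livers, against 7.93, 7.48, 7.90 and 7.28 in chow livers (log2 change -2.55, SE 0.34, 5.87-fold lower, adjusted p = 0.00664). Cyp51, the lanosterol 14-alpha demethylase, stood at 5.88, 7.53, 7.10 and 6.40 in HFD livers, against 9.33, 8.85, 8.88 and 8.97 in chow livers (log2 change -2.28, SE 0.30, 4.85-fold lower, adjusted p = 0.00664). Msmo1, the methylsterol monooxygenase after it, was at 7.17, 8.73, 8.52 and 8.26 in HFD livers, against 10.77, 10.16, 10.48 and 10.34 in chow livers (log2 change -2.27, SE 0.29, 4.83-fold lower, adjusted p = 0.00664). In each of the 3, every HFD mouse lay below every chow mouse by more than 1 on the log2 scale. Mvd, mevalonate diphosphate decarboxylase, was at 4.65, 5.80, 5.34 and 4.85 in HFD livers, against 7.15, 6.68, 7.04 and 6.56 in chow livers (log2 change -1.70, SE 0.24, adjusted p = 0.00716). Tm7sf2, a sterol 14-reductase, fell by 1.08 on the log2 scale (SE 0.18, adjusted p = 0.0145). Hsd17b7, a 3-ketosterol reductase, fell by 1.04 on the log2 scale (SE 0.14, adjusted p = 0.00664). These 6 were called with any 1 mouse left out.

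Nsdhl, Dhcr7, Lss (lanosterol synthase) and Hmgcs1 (HMG-CoA synthase) changed by -1.38, -1.24, -1.14 and -0.94. Their calls, with adjusted p of 0.0312, 0.0347, 0.0423 and 0.0379, were each lost without 1 or more of HFD mice 3 or 4 or chow mice 1, 2, 3 or 4, where the adjusted p reached 0.111. Without HFD mice 2 and 3, 12 of the 15 were called, all lower. Erg28, a scaffold protein of sterol synthesis outside the list, stood at 8.35, 9.03, 8.87 and 8.49 in HFD livers, against 9.82, 9.29, 9.35 and 9.47 in chow livers (log2 change -0.80, SE 0.17, adjusted p = 0.0263), and its call was lost without chow mice 1, 2 or 4 or HFD mouse 3.

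The promoters of these enzymes are shown because these genes fell together and are known targets of 1 factor, SREBP-2. SREBP-2 binds together with NF-Y, the factor that recognises the CCAAT box. RefSeq windows of 250 bases before the gene start (GRCm38.p6) were held for 9 of the 10 called genes, all but Sqle. CCAAT was searched on both strands and so also as ATTGG, and the sterol regulatory element was searched as TCACNCCAC on both strands. No match of one overlaps the other. Cyp51 (chr5:4104698-4104947, minus strand), Msmo1 (chr8:64733579-64733828, minus strand), Hsd17b7 (chr1:169969206-169969455, minus strand) and Hmgcs1 (chr13:119690101-119690350, plus strand) are printed 5′ to 3′ on the gene's strand, with every match in capitals.
Cyp51: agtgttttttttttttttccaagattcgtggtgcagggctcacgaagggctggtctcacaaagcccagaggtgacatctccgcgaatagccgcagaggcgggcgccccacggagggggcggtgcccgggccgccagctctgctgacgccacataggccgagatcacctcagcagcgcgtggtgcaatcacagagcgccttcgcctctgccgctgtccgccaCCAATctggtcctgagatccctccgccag
Msmo1: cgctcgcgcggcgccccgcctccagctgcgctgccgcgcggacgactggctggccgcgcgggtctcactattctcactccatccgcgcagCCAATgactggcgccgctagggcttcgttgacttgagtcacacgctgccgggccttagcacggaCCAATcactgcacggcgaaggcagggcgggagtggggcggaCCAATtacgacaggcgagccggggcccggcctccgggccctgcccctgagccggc
Hsd17b7: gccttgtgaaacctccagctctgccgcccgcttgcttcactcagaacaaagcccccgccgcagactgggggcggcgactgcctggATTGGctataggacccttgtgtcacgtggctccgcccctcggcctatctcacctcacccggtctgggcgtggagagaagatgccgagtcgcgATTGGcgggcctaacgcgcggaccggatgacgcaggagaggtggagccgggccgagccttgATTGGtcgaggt
Hmgcs1: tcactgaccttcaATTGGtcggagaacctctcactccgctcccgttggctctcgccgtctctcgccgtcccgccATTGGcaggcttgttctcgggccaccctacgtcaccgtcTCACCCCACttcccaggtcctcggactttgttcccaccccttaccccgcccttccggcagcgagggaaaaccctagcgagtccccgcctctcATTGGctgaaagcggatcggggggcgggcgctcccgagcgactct
CCAAT occurred in a window of 9 of the 9 genes, and at least 2 times in 1 window for 6 of them. Counted by window, CCAAT was in 9 of the 11 windows of these genes (81.8%). It occurred in 41.9% of 5395 tested genes with a window, and in 33.8% of all 32851 windows. TCACNCCAC occurred in 1 of the 9, Hmgcs1, against 1.26% of tested genes with a window and 1.05% of all windows. A match describes these letters only.

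Genes that sense sterols moved both ways. Of 13 tested, 1 rose and 2 fell. Insig2, which holds SREBP in the endoplasmic reticulum, stood at 11.433, 11.45, 11.42 and 11.15 in HFD livers, against 9.25, 10.43, 10.09 and 9.91 in chow livers (log2 change 1.45, SE 0.21, 2.72-fold higher, adjusted p = 0.00841). Srebf2, which encodes SREBP-2, stood at 5.36, 5.61, 5.72 and 5.48 in HFD livers, against 6.19, 6.16, 6.29 and 6.08 in chow livers (log2 change -0.64, SE 0.09, adjusted p = 0.00841). The HFD and chow mice did not overlap for either gene, and both were called with any mouse left out. Stard4, a cholesterol carrier, stood at 7.14, 8.53, 8.62 and 8.72 in HFD livers, against 9.81, 9.29, 9.26 and 9.54 in chow livers (log2 change -1.22, SE 0.31, adjusted p = 0.0481), and its call was lost without chow mice 1, 2, 3 or 4 or HFD mice 2 or 3. HFD mouse 1 was lowest for Stard4.

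**Figure D2:**
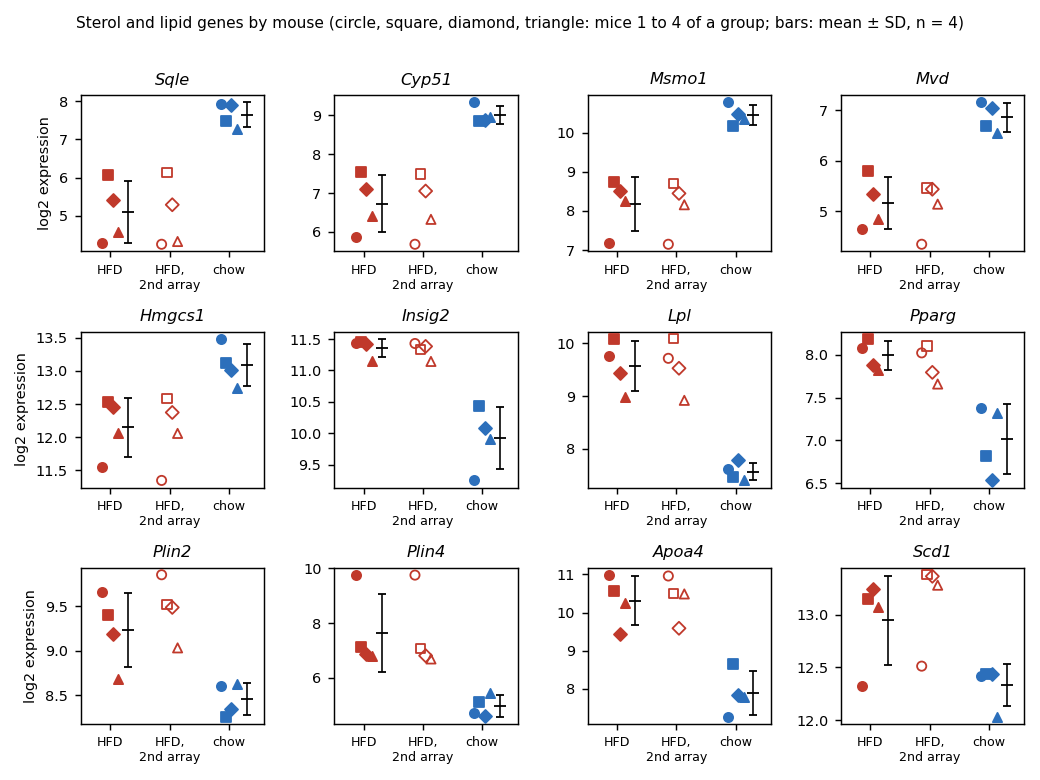
Log2 level (y axis) of 12 lipid genes in each HFD mouse (filled, first array; hollow, second array of the same mouse) and each chow mouse, with bars for the mean ± SD of 4 first arrays. HFD mice lie below chow mice for the 5 sterol synthesis genes and above them for Insig2, Lpl, Pparg, Plin2, Plin4 and Apoa4, and overlap with them for Scd1.

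Several genes of fatty acid uptake and droplet storage were higher. Lpl, lipoprotein lipase, which the adult liver normally makes little of, stood at 9.76, 10.09, 9.43 and 8.99 in HFD livers, against 7.61, 7.46, 7.79 and 7.42 in chow livers (log2 change 1.99, SE 0.20, 3.98-fold higher, adjusted p = 0.00258). Pparg, the storage-promoting nuclear receptor, stood at 8.08, 8.19, 7.89 and 7.83 in HFD livers, against 7.38, 6.81, 6.53 and 7.32 in chow livers (log2 change 0.98, SE 0.18, adjusted p = 0.0206), a call lost without chow mouse 2. Gpihbp1, which anchors lipoprotein lipase to capillaries, rose by 0.57 (SE 0.10, adjusted p = 0.0187), a call lost without chow mouse 1 or HFD mouse 3. These were 3 of 12 genes tested in the group, and the other 9 did not pass.

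Of 15 droplet and lipolysis genes, 4 rose and none fell, with a median of 0.50, or 0.33 with members undetected in chow livers at their lower bound. Plin4, a perilipin, stood at 9.77, 7.14, 6.86 and 6.81 in HFD livers, against 4.72, 5.10, 4.59 and 5.45 in chow livers (log2 change 2.68, SE 0.58, 6.4-fold higher, adjusted p = 0.0279), with HFD mouse 1 far above the other HFD mice, and its call was lost without chow mice 1, 2, 3 or 4 or HFD mouse 3. Plin2, the general droplet coat of hepatocytes, stood at 9.66, 9.40, 9.18 and 8.69 in HFD livers, against 8.60, 8.26, 8.34 and 8.62 in chow livers (log2 change 0.78, SE 0.19, adjusted p = 0.0408). Mgll, monoacylglycerol lipase, changed by 0.60 (SE 0.15, adjusted p = 0.0446). Leaving out any of HFD mice 1, 2, 3 or 4 or chow mice 1, 2, 3 or 4 ended the call of Plin2, Mgll or both (adjusted p up to 0.11). Hilpda, an inhibitor of the main triglyceride lipase, stood at 5.72, 5.47, 5.54 and 5.46 in HFD livers, against 4.83, 4.87, 5.03 and 4.98 in chow livers (log2 change 0.62, SE 0.09, adjusted p = 0.00716), and it was called with any 1 mouse left out.

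Genes of triglyceride and phospholipid synthesis moved both ways, with 2 of 18 higher and 1 lower. Mogat1, a monoacylglycerol acyltransferase known to rise with PPAR gamma in fatty mouse liver, was not detected on any chow array and was at least 1.28-fold higher in HFD livers, which stood at 5.37, 4.74, 5.004 and 5.28 against measured values of 4.56, 4.30, 4.27 and 4.26 in chow livers (adjusted p = 0.0201). For such a gene the chow side was set, per array, to the higher of the gene's own value and the dimmest detected probe. Dgat2, the main acyltransferase for newly made fat, fell to 10.68, 10.66, 10.72 and 10.88 in HFD livers, against 11.39, 11.23, 11.18 and 11.11 in chow livers (log2 change -0.49, SE 0.09, adjusted p = 0.0192). Chpt1, a phosphatidylcholine-forming enzyme, changed by 0.72 (SE 0.18, adjusted p = 0.0467). The 3 calls were lost in turn without chow mice 2 or 4 (Mogat1), HFD mouse 3 (Dgat2) and chow mice 1, 2, 3 or 4 or HFD mice 1, 3 or 4 (Chpt1).

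Of 18 genes of fatty acid synthesis, only Elovl5, an elongase of polyunsaturated fatty acids, was called. It stood at 12.67, 13.31, 13.33 and 13.14 in HFD livers, against 12.26, 12.37, 12.43 and 12.03 in chow livers (log2 change 0.84, SE 0.15, adjusted p = 0.0197), a call lost without chow mice 1 or 4 or HFD mouse 3. Scd1, stearoyl-CoA desaturase, had the next smallest p and stood at 12.32, 13.15, 13.24 and 13.08 in HFD livers, against 12.41, 12.43, 12.44 and 12.03 in chow livers (log2 change 0.62, SE 0.19, adjusted p = 0.0877), with HFD mouse 1 inside the chow range and the other 3 above it. HFD mouse 1 stood apart over the whole group, which averaged, less the chow mean, -0.78, 0.40, 0.47 and 0.32 in HFD mice 1 to 4.

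Apolipoproteins split, with 3 of 14 higher and 2 lower. Apoa4, which is carried on chylomicrons and rises in fatty mouse liver, stood at 10.99, 10.57, 9.45 and 10.25 in HFD livers, against 7.28, 8.66, 7.85 and 7.79 in chow livers (log2 change 2.42, SE 0.34, 5.35-fold higher, adjusted p = 0.00716). Apoc2, the cofactor of lipoprotein lipase, stood at 8.89, 8.67, 8.69 and 8.82 in HFD livers, against 8.20, 8.18, 8.16 and 8.06 in chow livers (log2 change 0.62, SE 0.08, adjusted p = 0.00664), and its 4 HFD and 4 chow values lay in separate narrow bands. Apoa5, another activator of triglyceride clearance, changed by 0.41 (adjusted p = 0.042). Apom, which carries sphingosine 1-phosphate, changed by -0.50 (adjusted p = 0.0221), and Apoh by -0.41 (adjusted p = 0.0436). Apoa4 and Apoc2 were called with any mouse left out, while Apoa5 lost its call without any 1 of the 8 mice. Apom and Apoh lost their calls without 1 or more of HFD mice 1, 3 or 4 or chow mice 1, 2 or 4 (adjusted p up to 0.12).

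Among genes of fat oxidation in mitochondria 1 of 18 rose, where 3.22% of all genes rose. It was Crat, carnitine acetyltransferase, at 5.65, 5.28, 5.45 and 5.38 in HFD livers, against 4.60, 4.63, 4.83 and 4.52 in chow livers (log2 change 0.80, SE 0.10, adjusted p = 0.00664). In the peroxisome group of 20, 2 rose and 1 fell. Scp2, a sterol carrier and peroxisomal thiolase, stood at 11.63, 11.41, 11.60 and 11.92 in HFD livers, against 10.75, 10.84, 10.55 and 10.85 in chow livers (log2 change 0.89, SE 0.12, adjusted p = 0.00664). Ehhadh, the bifunctional enzyme, changed by 0.82 (adjusted p = 0.0467) and Pecr, a trans-enoyl-CoA reductase, by -0.54 (adjusted p = 0.0375). Both lost the call without 1 or more of HFD mice 1, 2, 3 or 4 or chow mice 1, 2, 3 or 4 (adjusted p up to 0.122). Eci3, a peroxisomal enoyl-CoA isomerase outside the lists, fell to 5.85, 6.07, 7.004 and 6.03 in HFD livers, against 7.91, 7.92, 7.89 and 7.31 in chow livers (log2 change -1.52, SE 0.24, 2.86-fold lower, adjusted p = 0.0122), with HFD mouse 3 the highest of its group. Among 9 genes of ketone synthesis and fasting hormones only Fgf21, a fasting and stress hormone of the liver, was called, at 7.88, 7.24, 6.65 and 7.04 in HFD livers, against 5.95, 5.86, 4.99 and 5.40 in chow livers (log2 change 1.66, SE 0.27, 3.15-fold higher, adjusted p = 0.0132). Slc16a6, the hepatic ketone exporter, was not called (log2 change 0.40, SE 0.12, adjusted p = 0.0742). Crat, Scp2, Eci3 and Fgf21 kept their calls with any 1 mouse left out.

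**Figure D3:**
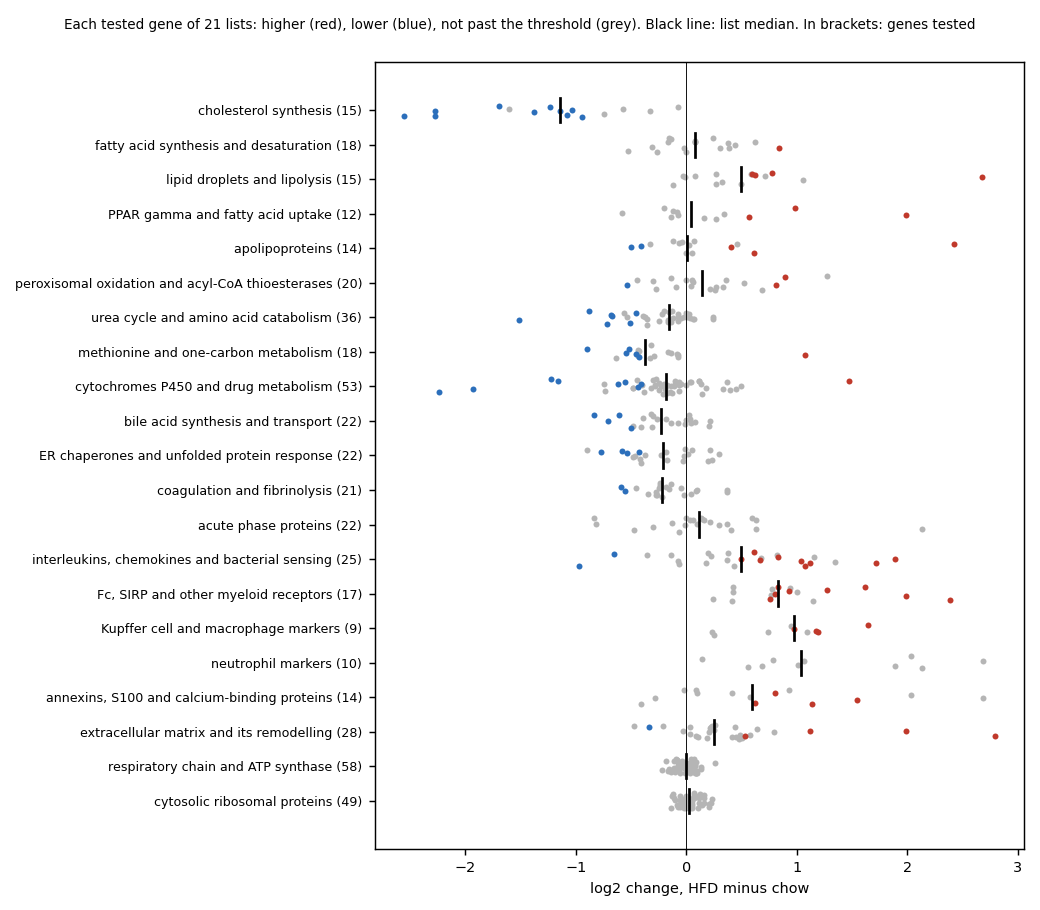
Each dot is the log2 change, HFD minus chow, of 1 gene in 21 groups (rows), red where it was called higher, blue where called lower and grey otherwise, with a line at the median of the group. Cholesterol synthesis lies furthest left, while the myeloid receptors, Kupffer markers and neutrophil markers lie to the right of 0.

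Of 36 genes of the urea cycle and amino acid catabolism, 7 fell and none rose (median -0.16). Cps1, the entry enzyme of the urea cycle, stood at 11.60, 11.94, 12.001 and 12.22 in HFD livers, against 12.54, 12.72, 12.67 and 12.54 in chow livers (log2 change -0.68, SE 0.12, adjusted p = 0.0197). A second probe of Cps1 also read lower. Slc25a15, the mitochondrial ornithine carrier, changed by -0.51 (adjusted p = 0.0262). Agxt, which converts glyoxylate to glycine, stood at 9.999, 9.70, 10.01 and 10.23 in HFD livers, against 10.70, 10.85, 11.09 and 10.82 in chow livers (log2 change -0.88, SE 0.12, adjusted p = 0.00716), and it was the only one of the 7 called whichever mouse was left out. Etnppl, which degrades phosphoethanolamine, stood at 6.01, 5.71, 6.75 and 7.29 in HFD livers, against 7.77, 8.36, 7.90 and 7.79 in chow livers (log2 change -1.51, SE 0.31, adjusted p = 0.0243). Hal (histidine), Ivd (leucine) and Cbs (homocysteine to cystathionine) changed by -0.72, -0.46 and -0.68, with adjusted p of 0.0279, 0.0292 and 0.0262. The group had 1 to 9 calls with 1 mouse left out, fewest without chow mouse 2 or chow mouse 4, and 1 without HFD mice 2 and 3.

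One-carbon metabolism passes methyl and formyl groups between serine, glycine, folate and methionine. Of 18 genes, 5 fell and 1 rose, and the median was -0.38. Aldh1l1, the formyltetrahydrofolate dehydrogenase, stood at 9.72, 10.14, 10.26 and 10.10 in HFD livers, against 11.12, 10.85, 10.81 and 11.01 in chow livers (log2 change -0.89, SE 0.13, 1.86-fold lower, adjusted p = 0.00716), and it was called with any mouse left out. Mthfd1 stood at 8.95, 9.20, 9.16 and 9.17 in HFD livers, against 9.61, 9.67, 9.58 and 9.45 in chow livers (log2 change -0.46, SE 0.09, adjusted p = 0.0206). Shmt2, the mitochondrial serine hydroxymethyltransferase, and Dmgdh and Sardh, which strip methyl groups from choline-derived glycines, changed by -0.42, -0.55 and -0.51 (adjusted p = 0.0263, 0.0496 and 0.0248). Folr2, a folate receptor found on macrophages, was the 1 that rose, at 6.602, 7.57, 7.599 and 6.86 in HFD livers, against 6.21, 5.75, 6.55 and 5.83 in chow livers (log2 change 1.07, SE 0.25, adjusted p = 0.0375), with HFD mice 2 and 3 highest. Calls in the lower direction ran from 1 to 5 with 1 mouse left out, fewest without chow mouse 1, and Folr2 lost its call without chow mice 1, 2 or 4 or HFD mice 2 or 3.

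Zonal genes were examined because these pathways are not evenly spread over the lobule. Of 19 periportal genes, 4 fell (Pck1, Hal, Cps1 and Aldh1b1) and 1 rose (Apoa4), and of 19 pericentral genes, 3 fell (Cyp1a2, Gulo and Mup20) and none rose. The medians were -0.37 and -0.20. Gulo, the last enzyme of vitamin C synthesis, changed by -0.46 (adjusted p = 0.0319), a call lost without chow mice 1, 2 or 4 or HFD mice 3 or 4, and Aldh1b1, a mitochondrial aldehyde dehydrogenase, by -0.62 (adjusted p = 0.0209), lost without chow mice 1 or 2. Of 12 hepatocyte markers 2 fell, Cps1 and Apoh, and 5 had changes above 0. Their mean, less the chow mean, was -0.18, -0.12, -0.12 and -0.18 in HFD mice and -0.001, -0.01, -0.02 and 0.03 in chow mice, and 0.002, -0.038, -0.004 and -0.052 on the second arrays of the same HFD mice.

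Of 53 cytochromes P450 and conjugating enzymes, 8 fell and 1 rose, and 40 of the 53 changes were below 0. Cyp1a2, a caffeine-metabolising P450, stood at 8.73, 8.74, 8.99 and 9.11 in HFD livers, against 11.35, 10.58, 10.55 and 10.79 in chow livers (log2 change -1.93, SE 0.17, 3.8-fold lower, adjusted p = 0.00218). Cyp2b10, the standard target of the receptor CAR, stood at 5.96, 6.66, 7.14 and 7.56 in HFD livers, against 8.79, 9.18, 8.70 and 9.61 in chow livers (log2 change -2.24, SE 0.32, 4.73-fold lower, adjusted p = 0.00716). Every HFD mouse lay more than 1 below every chow mouse on the log2 scale for both. Cyp2g1, a further P450 outside the list, fell to 4.84, 5.18, 5.37 and 5.41 in HFD livers, against 6.34, 7.10, 6.88 and 6.46 in chow livers (log2 change -1.50, SE 0.18, adjusted p = 0.00627). The 3 were called with any 1 mouse left out.

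Cyp4f14, a fatty acid omega-hydroxylase, stood at 9.77, 10.81, 10.85 and 10.54 in HFD livers, against 11.57, 11.87, 11.82 and 11.35 in chow livers (log2 change -1.16, SE 0.23, adjusted p = 0.0218), lost without chow mice 1 or 2. Sult5a1, a sulfotransferase, was not detected on any HFD array and was at least 1.82-fold lower in HFD livers (measured 4.30, 4.35, 4.43 and 4.26 in HFD livers and 5.13, 6.37, 5.69 and 5.04 in chow livers, adjusted p = 0.0243), lost without HFD mice 2 or 3. Sult1a1, a phenol sulfotransferase, changed by -0.44 (adjusted p = 0.0197, lost without HFD mouse 3). Ugt2b34, a glucuronosyltransferase, changed by -0.55 (adjusted p = 0.00973) and Ces1g, a carboxylesterase, by -0.41 (adjusted p = 0.0401), the second lost without chow mice 1, 3 or 4 or HFD mice 1, 2, 3 or 4. The 1 P450 that rose was Cyp2d9, at 9.24, 8.20, 8.80 and 9.10 in HFD livers, against 7.82, 7.15, 6.81 and 7.65 in chow livers (log2 change 1.47, SE 0.26, 2.78-fold higher, adjusted p = 0.0192), and it was called with any mouse left out. Cyp2d9, Ugt2b34, Ces1g, Sult2a8, Mup20, Serpina1c and Serpina1e belong to families of near-identical copies, so their probes may also read a relative.

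None of 19 glutathione S-transferases was called, with changes of -0.96 to 0.18. The smallest p were those of Gsta2 (log2 change -0.96, SE 0.26, adjusted p = 0.059) and Gsta4 (log2 change -0.84, SE 0.24, adjusted p = 0.0682). Among 23 antioxidant genes, Hmox1, heme oxygenase 1, stood at 6.67, 6.99, 6.68 and 6.13 in HFD livers, against 5.83, 5.44, 5.71 and 5.93 in chow livers (log2 change 0.89, SE 0.17, adjusted p = 0.0218), and Prdx4 changed by -0.49 (adjusted p = 0.0375). Hmox1 lost its call without chow mice 1 or 2 or HFD mouse 3 and Prdx4 without chow mice 1, 2, 3 or 4 or HFD mice 1, 3 or 4.

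Of 22 bile acid genes, 4 fell and none rose. Cyp7b1, the oxysterol hydroxylase of the alternative pathway, stood at 8.73, 8.75, 8.69 and 8.82 in HFD livers, against 9.28, 9.27, 9.21 and 9.23 in chow livers (log2 change -0.50, SE 0.07, adjusted p = 0.00716), and its values formed 2 bands with no mouse between. Abcb11, the bile salt export pump, stood at 8.49, 8.81, 8.89 and 8.85 in HFD livers, against 9.18, 9.61, 9.24 and 9.43 in chow livers (log2 change -0.61, SE 0.12, adjusted p = 0.0243). Slco1a4, an uptake carrier, and Sult2a8, a bile acid sulfotransferase, changed by -0.84 and -0.71 (adjusted p = 0.0211 and 0.0218). The calls of Abcb11, Slco1a4 and Sult2a8 were lost without 1 or more of HFD mice 2 or 3 or chow mice 1, 2 or 4 (adjusted p up to 0.0714).

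Of 141 solute carriers in the membranes of cells and organelles, 13 fell and 5 rose. Slco2a1, the prostaglandin transporter, stood at 6.76, 6.98, 7.22 and 7.32 in HFD livers, against 8.34, 8.53, 8.41 and 8.14 in chow livers (log2 change -1.28, SE 0.13, 2.43-fold lower, adjusted p = 0.00258). Slc46a3, a lysosomal carrier, stood at 8.87, 9.25, 9.14 and 9.32 in HFD livers, against 9.98, 9.76, 9.72 and 9.85 in chow livers (log2 change -0.68, SE 0.11, adjusted p = 0.0122), and both were called with any mouse left out. Carriers of amino acids among the lower ones were Slc38a3 (-0.81, adjusted p = 0.0204), Slc38a2 (-0.62, adjusted p = 0.0241) and Slc16a10 (-0.63, adjusted p = 0.0196). Slc13a2, a citrate and succinate carrier, changed by -1.02 (adjusted p = 0.0248). The remaining lower carriers were Slc25a44, Slc26a1, Slc31a1 (copper), Slc35a1, Slc46a1 (folate), Slc25a15 and Slco1a4. In 12 settings other than leaving out a mouse, Slc25a44 was called in only 4, and not with the mean of its detected probes. The 5 that rose were Slc4a1 (1.88, adjusted p = 0.0329), Slc8a1 (0.67, adjusted p = 0.0228), Slc17a8 (0.65), Slc7a8 (0.42) and Slc40a1 (0.44). With 1 mouse left out, 2 to 14 were lower, fewest without chow mouse 4, and 0 to 7 were higher, fewest without HFD mouse 3 or chow mouse 4.

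Slc4a1, the anion exchanger known from red cells, was highest in HFD mice 2 and 3, at 5.80, 7.07, 7.84 and 6.07 in HFD livers, against 5.38, 4.36, 5.17 and 4.37 in chow livers. The red cell marker Hba-a1 was at 13.14, 13.28, 13.31 and 13.69 in HFD livers, against 13.05, 11.93, 13.49 and 12.98 in chow livers, was not called (log2 change 0.49, SE 0.28, adjusted p = 0.309) and has near-identical copies. Of 23 ATP-binding cassette transporters, 5 fell and none rose. Abca8a stood at 5.93, 5.43, 5.82 and 6.05 in HFD livers, against 6.90, 7.004, 6.45 and 6.71 in chow livers (log2 change -0.96, SE 0.15, adjusted p = 0.0123) and was called with any mouse left out, while Abca8b, Abca6, Abca2 and Abcb11 changed by -0.55, -0.38, -0.48 and -0.61, calls lost without 1 or more of HFD mice 1, 2, 3 or 4 or chow mice 1, 2, 3 or 4 (adjusted p up to 0.126).

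**Figure D4:**
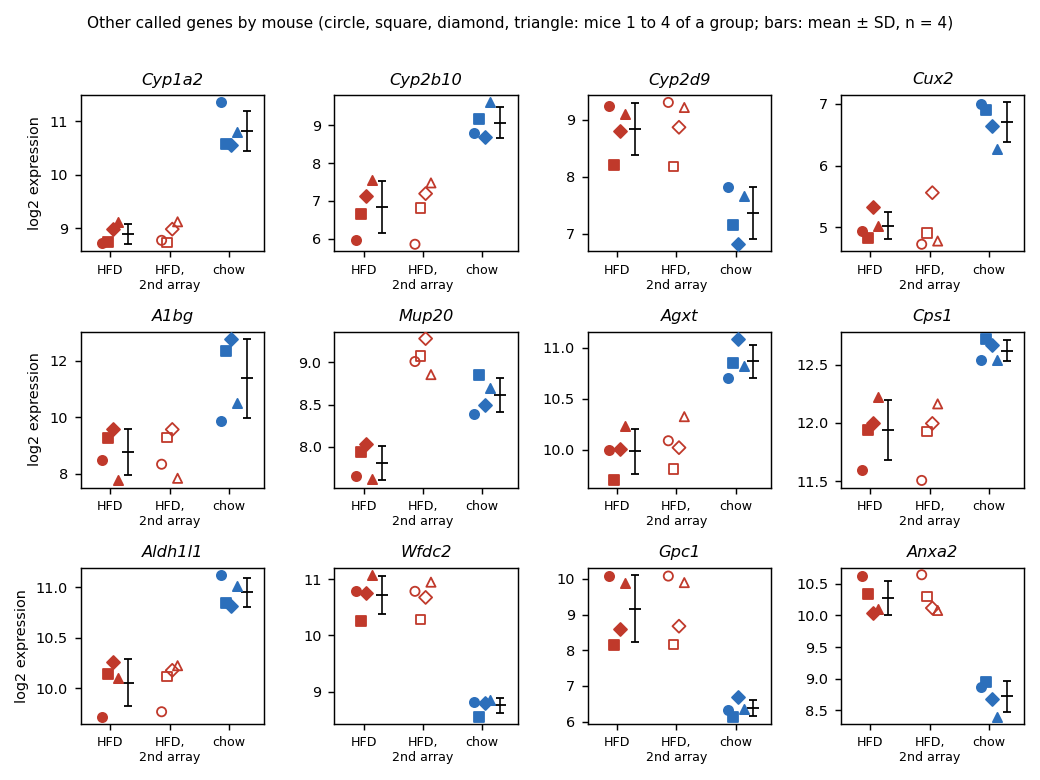
Log2 level (y axis) of 12 further genes in each HFD mouse (filled, first array; hollow, second array of the same mouse) and each chow mouse, with bars for the mean ± SD of 4 first arrays. The first arrays of HFD mice lie below chow for Cyp1a2, Cyp2b10, Cux2, A1bg, Mup20, Agxt, Cps1 and Aldh1l1, and above for Cyp2d9, Wfdc2, Gpc1 and Anxa2. The second arrays of Mup20 lie from the level of the highest chow mouse upward.

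Genes that differ between the sexes in mouse liver, through the pattern of growth hormone release, gave calls in both sets, and all the mice were female. Among 10 female-biased genes, 2 fell and none rose. Cux2, a female-specific repressor in mouse liver, stood at 4.94, 4.82, 5.32 and 5.02 in HFD livers, against 6.997, 6.90, 6.63 and 6.28 in chow livers (log2 change -1.68, SE 0.16, 3.19-fold lower, adjusted p = 0.00255), one of the 15 smallest p of all. A1bg stood at 8.51, 9.26, 9.59 and 7.77 in HFD livers, against 9.87, 12.34, 12.77 and 10.51 in chow livers (log2 change -2.59, SE 0.63, 6.03-fold lower, adjusted p = 0.0422), with a wide spread in chow mice, and its call was lost without chow mice 2, 3 or 4 or HFD mice 1, 2, 3 or 4. Among 16 male-biased genes, 5 fell and 1, Cyp2d9, rose. Bcl6, a repressor, stood at 7.70, 7.67, 7.16 and 8.06 in HFD livers, against 8.49, 8.76, 9.33 and 9.77 in chow livers (log2 change -1.44, SE 0.27, adjusted p = 0.0206), lost without HFD mouse 3. Serpina1e, an antitrypsin, stood at 5.51, 5.21, 5.15 and 4.78 in HFD livers, against 6.27, 7.38, 8.12 and 6.32 in chow livers (log2 change -1.86, SE 0.37, adjusted p = 0.0234), lost without chow mouse 2 or HFD mouse 3, and Keg1 changed by -0.89 (adjusted p = 0.0243), lost without chow mice 1, 2 or 4 or HFD mouse 2. Cyp7b1 is among the 5.

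Mup20, a major urinary protein, stood at 7.65, 7.94, 8.03 and 7.62 in HFD livers, against 8.396, 8.85, 8.503 and 8.70 in chow livers (log2 change -0.80, SE 0.13, adjusted p = 0.0123) on the first arrays, a call kept with any mouse left out. The second arrays of the same 4 HFD mice read 9.01, 9.08, 9.28 and 8.86, with HFD mouse 4 level with the highest chow mouse and the other 3 above it. The median absolute difference between second and first arrays of the HFD mice over all genes was 0.052, and Mup20 was the only called gene whose second and first arrays differed by more than its diet change. The direction of Mup20 against the same chow mice differed between the chips.

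Glucose, insulin and rhythm genes gave 1 call a group, close to the 6.42% called over all genes. Pck1, the gluconeogenic carboxykinase, stood at 5.53, 5.11, 4.98 and 5.74 in HFD livers, against 6.07, 6.12, 5.71 and 6.24 in chow livers (log2 change -0.69, SE 0.18, adjusted p = 0.047), the 1 call among 17 genes of glucose metabolism, and Got1, the cytosolic aspartate aminotransferase, was not called (log2 change -0.56, SE 0.16, adjusted p = 0.0727), nor was Ppargc1a, the coactivator of Pck1 (log2 change -0.55, SE 0.15, adjusted p = 0.0557). Igf1, the growth factor that the liver secretes, was the 1 call among 19 insulin and growth factor genes (log2 change -0.42, SE 0.10, adjusted p = 0.043). Its call was lost without any 1 of the 8 mice, and that of Pck1 without chow mice 1, 2 or 4 or HFD mice 1, 2 or 3. The insulin receptor phosphatase Ptpn1 was not called (log2 change 0.38, SE 0.10, adjusted p = 0.0616).

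Noct, a rhythmic phosphatase, stood at 6.01, 6.57, 6.52 and 7.89 in HFD livers, against 8.77, 8.05, 9.27 and 8.20 in chow livers (log2 change -1.82, SE 0.39, 3.54-fold lower, adjusted p = 0.0267), the 1 call among 15 clock genes, and it was lost without chow mice 1, 3 or 4 or HFD mice 2 or 3. Nr1d1, the repressor REV-ERB alpha, stood at 5.84, 5.38, 6.26 and 6.64 in HFD livers, against 7.01, 6.68, 6.57 and 7.36 in chow livers and did not pass (log2 change -0.87, SE 0.26, adjusted p = 0.0786). The median of the clock genes was -0.46, and -0.08 without HFD mice 2 and 3. Less the chow mean, they averaged -0.44, -0.85, -0.60 and 0.03 in HFD mice 1 to 4. The chow mice 1 to 4 averaged 0.21, -0.28, -0.18 and 0.25. The hour of collection is not given, so diet and hour cannot be told apart for these genes. Tsc22d3, a glucocorticoid-induced leucine zipper, fell by 0.54 on the log2 scale (SE 0.10, adjusted p = 0.0211) and its second probe also read lower. Its call was lost without chow mice 1, 2 or 4, and also with the mean of its detected probes or without the detection filter (adjusted p up to 0.0557). Of 16 glucocorticoid-responsive genes, it and Pck1 fell, and Cdkn1a rose.

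Fos, an immediate early transcription factor, stood at 5.75, 5.88, 5.59 and 5.08 in HFD livers, against 4.51, 4.87, 4.49 and 4.54 in chow livers (log2 change 0.97, SE 0.17, 1.96-fold higher, adjusted p = 0.0151), and it was called with any mouse left out. Jun, its partner, changed by 0.55 (adjusted p = 0.0375), and Zfp36, an RNA-binding brake on inflammatory transcripts, by -0.51 (adjusted p = 0.0478). Jun lost its call without chow mice 1, 2, 3 or 4 or HFD mice 1, 2 or 4 and Zfp36 without any 1 of the 8 mice. The other 12 of 15 genes did not pass. Of 21 genes of NAD metabolism, Aox3, an aldehyde oxidase, alone fell (log2 change -0.66, SE 0.14, adjusted p = 0.0283), a call lost without chow mice 1, 2 or 4 or HFD mice 2 or 3. The tryptophan dioxygenase Tdo2 had the next smallest p (log2 change -0.36, SE 0.12, adjusted p = 0.105).

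Of 22 chaperones and other genes of the secretory pathway, 4 fell and none rose. Hyou1 stood at 4.87, 4.76, 4.72 and 4.74 in HFD livers, against 5.41, 5.20, 5.93 and 5.65 in chow livers (log2 change -0.77, SE 0.14, adjusted p = 0.0192). Hsp90b1, also called GRP94, stood at 10.86, 10.82, 10.50 and 10.36 in HFD livers, against 11.07, 11.14, 11.30 and 11.19 in chow livers (log2 change -0.54, SE 0.12, adjusted p = 0.0329). Pdia4, a disulfide isomerase, and Sec61a1, the translocation channel, changed by -0.58 and -0.42 (adjusted p = 0.0458 and 0.0283). The count was 0 to 6 with 1 mouse left out, 0 without HFD mouse 3 or chow mouse 4, and 0 without HFD mice 2 and 3. None of 13 cytosolic heat shock genes passed, with Stip1 (log2 change -0.53, SE 0.14, adjusted p = 0.0511) and Fkbp4 (log2 change -0.45, SE 0.14, adjusted p = 0.0901) nearest.

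Among plasma proteins, 2 of 21 coagulation genes fell, where 3.20% of all genes fell. F7, coagulation factor VII, stood at 8.57, 8.23, 8.53 and 8.34 in HFD livers, against 8.90, 9.04, 8.99 and 9.12 in chow livers (log2 change -0.59, SE 0.10, adjusted p = 0.0126), and Klkb1, plasma prekallikrein, at 8.85, 8.73, 8.71 and 8.96 in HFD livers, against 9.30, 9.44, 9.35 and 9.38 in chow livers (log2 change -0.56, SE 0.08, adjusted p = 0.00915). Both were called with any mouse left out. No acute phase gene of 22 passed, and Hpx, hemopexin, and Hp, haptoglobin, had the smallest p (log2 change 0.30, SE 0.09, adjusted p = 0.0725, and log2 change 0.59, SE 0.18, adjusted p = 0.0888). Less the chow mean, the acute phase group averaged 0.88, 0.30, -0.19 and -0.38 in HFD mice 1 to 4. Of 18 serpins, Serpina12 (vaspin) and Serpinb6a rose by 1.45 and 0.76 (adjusted p = 0.0243 and 0.0231). Serpina1c and Serpina1e changed by -0.61 and -1.86 (adjusted p = 0.0498 and 0.0234). In 12 settings other than leaving out a mouse, Serpina1c was called in only 3, and not with the mean of its detected probes. Each of the 4 lost its call without 1 or more of HFD mice 1, 2, 3 or 4 or chow mice 1, 2 or 4 (adjusted p up to 0.125).

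Several genes of myeloid cells were higher, and unevenly so among the HFD mice. Of 17 myeloid receptors, 8 rose, none fell and all 17 changes were above 0 (median 0.83, and the same with bounds). Of the 17, 4 were undetected on every array of 1 diet. Those 4 passed the detection filter only through other arrays, so their direction is not separate support. The mean of the 17, less the chow mean, was 0.63, 1.54, 1.24 and 0.52 in HFD mice 1 to 4 and 0.08, -0.11, 0.31 and -0.28 in chow mice 1 to 4, so HFD mice 2 and 3 carried the largest values. In bulk tissue, more cells of a type and more RNA per cell cannot be told apart.

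Fcgr4, a receptor for IgG, stood at 9.68, 11.87, 10.999 and 9.65 in HFD livers, against 9.03, 7.62, 8.44 and 7.58 in chow livers (log2 change 2.38, SE 0.50, 5.22-fold higher, adjusted p = 0.0265). Fcer1g, its signalling chain, stood at 8.51, 10.05, 9.58 and 8.53 in HFD livers, against 7.79, 7.33, 8.06 and 6.99 in chow livers (log2 change 1.62, SE 0.36, adjusted p = 0.0304). Tyrobp, the adaptor DAP12, stood at 6.39, 7.49, 6.90 and 6.20 in HFD livers, against 5.63, 5.35, 5.77 and 5.12 in chow livers (log2 change 1.28, SE 0.26, adjusted p = 0.0243). HFD mice 2 and 3 were highest for each of these. Clec7a, the beta-glucan receptor dectin-1, stood at 5.41, 5.42, 5.37 and 5.10 in HFD livers, against 4.50, 4.34, 4.87 and 4.38 in chow livers (log2 change 0.80, SE 0.13, adjusted p = 0.0122), with a smaller spread among HFD mice, and it alone of the 8 was called with any mouse left out. Fcgr3, Sirpb1a and Clec4n changed by 0.83, 1.99 and 0.93 (adjusted p = 0.0275, 0.0275 and 0.0197). Csf2ra, a chain of the GM-CSF receptor, was not detected on any chow array and was at least 1.41-fold higher in HFD livers (adjusted p = 0.0408). With 1 mouse left out, 1 to 11 of the 17 were called, fewest without HFD mouse 3, chow mouse 2 or chow mouse 4, and without HFD mice 2 and 3 it was 1.

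Of 25 interleukin, chemokine and bacterial sensing genes, 9 rose and 2 fell. Of the 25, 3 were undetected on every array of 1 diet, Ccl6 among them. Those 3 passed the detection filter only through other arrays, so their direction is not separate support. Il1a, the alarm cytokine interleukin 1 alpha, stood at 5.63, 5.87, 5.82 and 5.48 in HFD livers, against 4.54, 4.68, 4.96 and 4.48 in chow livers (log2 change 1.04, SE 0.13, 2.05-fold higher, adjusted p = 0.00627). Cd14, the endotoxin co-receptor, stood at 6.64, 7.03, 6.39 and 5.98 in HFD livers, against 5.54, 5.27, 5.31 and 5.43 in chow livers (log2 change 1.12, SE 0.19, adjusted p = 0.0142). Il1b, interleukin 1 beta, stood at 6.74, 8.61, 7.94 and 6.69 in HFD livers, against 5.68, 5.65, 6.07 and 5.01 in chow livers (log2 change 1.89, SE 0.41, 3.71-fold higher, adjusted p = 0.0283), and Tlr2, which senses bacterial lipoproteins, at 6.91, 7.33, 6.58 and 6.09 in HFD livers, against 5.83, 5.70, 5.74 and 5.36 in chow livers (log2 change 1.07, SE 0.23, adjusted p = 0.027). HFD mouse 2 was the highest in all 4. Ccl9, a chemokine, fell to 9.76, 9.55, 9.65 and 9.47 in HFD livers, against 10.46, 10.50, 10.32 and 11.06 in chow livers (log2 change -0.98, SE 0.15, adjusted p = 0.0112), and Il6ra, the interleukin 6 receptor, to 4.95, 4.76, 4.71 and 4.68 in HFD livers, against 5.50, 5.26, 5.27 and 5.67 in chow livers (log2 change -0.65, SE 0.11, adjusted p = 0.0151). Il1a, Cd14, Ccl9 and Il6ra were called with any mouse left out.

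Ccl4, Cxcl16, Nfkbiz and Myd88 changed by 1.72, 0.67, 0.83 and 0.50 (adjusted p = 0.0485, 0.0383, 0.0454 and 0.046). Ccl6 was undetected on all chow arrays and at least 1.24-fold higher in HFD livers (adjusted p = 0.0197). The 9 higher calls became 2 to 11 with 1 mouse left out, fewest without HFD mouse 3 or chow mouse 1, 2 or 4, and 1 without HFD mice 2 and 3.

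Kupffer cell and macrophage markers gave 4 calls of 9, all higher. Clec4f, a lectin specific to Kupffer cells in mice, stood at 9.29, 9.59, 10.24 and 9.40 in HFD livers, against 8.60, 8.55, 9.11 and 8.35 in chow livers (log2 change 0.98, SE 0.22, adjusted p = 0.0308). Lyz2, lysozyme, stood at 9.46, 10.66, 10.27 and 8.98 in HFD livers, against 8.28, 7.90, 8.85 and 7.76 in chow livers (log2 change 1.65, SE 0.36, adjusted p = 0.0283). C1qb and C1qc, chains of complement C1q made by macrophages, changed by 1.18 and 1.20 (adjusted p = 0.0423 and 0.041). Less the chow mean, the 9 averaged 0.52, 1.59, 1.13 and 0.44 in HFD mice and 0.08, -0.13, 0.36 and -0.32 in chow mice. The 4 calls were lost without HFD mouse 2 or 3 or chow mouse 1, 2 or 4, with adjusted p up to 0.119, and 0 of 9 were called without HFD mice 2 and 3, where the median was 0.54 against 0.98 with all mice.

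All 10 neutrophil markers had changes above 0, and none was called. Only 2 of the 10 were detected on all 8 arrays, and 5 were undetected on every array of 1 diet. Those 5 passed the detection filter only through other arrays, so their direction is not separate support. S100a8, a subunit of the neutrophil protein calprotectin, stood at 7.21, 10.07, 9.86 and 5.95 in HFD livers, against 5.12, 5.67, 6.47 and 5.10 in chow livers (log2 change 2.68, SE 0.83, adjusted p = 0.0854), and S100a9, its partner subunit, at 5.61, 8.01, 7.92 and 4.83 in HFD livers, against 4.42, 4.52, 5.06 and 4.25 in chow livers (log2 change 2.03, SE 0.65, adjusted p = 0.0915). HFD mice 2 and 3 stood far above the rest and HFD mouse 4 inside the chow range. The neutrophil mean, less the chow mean, was 0.84, 2.29, 2.04 and 0.02 in HFD mice and -0.16, -0.09, 0.19 and 0.07 in chow mice, and the median of the 10 was 1.04 with all mice, 0.48 with bounds and 0.08 without HFD mice 2 and 3. These markers moved with the myeloid receptors, chemokines and Kupffer markers above and with Folr2, and their part in those results was not tested.

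Antigen presentation and interferon genes gave 1 call a group, where 6.42% of all genes were called. None of the tested markers of 6 other cell types was called. H2-DMa, which loads peptide on MHC class II, rose by 0.77 (SE 0.19, adjusted p = 0.0413), the 1 call of 7, all with changes above 0, and H2-DMb1 did not pass (log2 change 0.59, SE 0.16, adjusted p = 0.0544). Psmb10, an immunoproteasome subunit, was the 1 call of 17 class I genes, with a log2 change of -0.34 (adjusted p = 0.0436), and Pdia3 of the peptide-loading complex did not pass (log2 change -0.41, SE 0.13, adjusted p = 0.0978). The interferon-induced Oas1g was the 1 call of 28 (log2 change 0.72, SE 0.16, adjusted p = 0.0307), and Ifi27l2a did not pass (log2 change 0.81, SE 0.23, adjusted p = 0.0709). Masp1, a lectin pathway protease, was the 1 complement gene that fell, beside C1qb and C1qc that rose, of 23 (log2 change -0.38, SE 0.08, adjusted p = 0.0265). The 4 calls here were lost without 1 or more of HFD mice 1, 2, 3 or 4 or chow mice 1, 2, 3 or 4 (adjusted p up to 0.107). That of Psmb10 was lost without any 1 of the 8 mice. Of T and NK, B, stellate, cholangiocyte, red cell and pancreatic acinar markers, 3, 1, 6, 1, 2 and 1 were tested and none was called. Cd3g and Cd3e changed by -0.31 and -0.32, Cd79b by 0.45, Dcn and Col1a1 by 0.45 and 0.20, and Cela1 by -0.41.

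**Figure D5:**
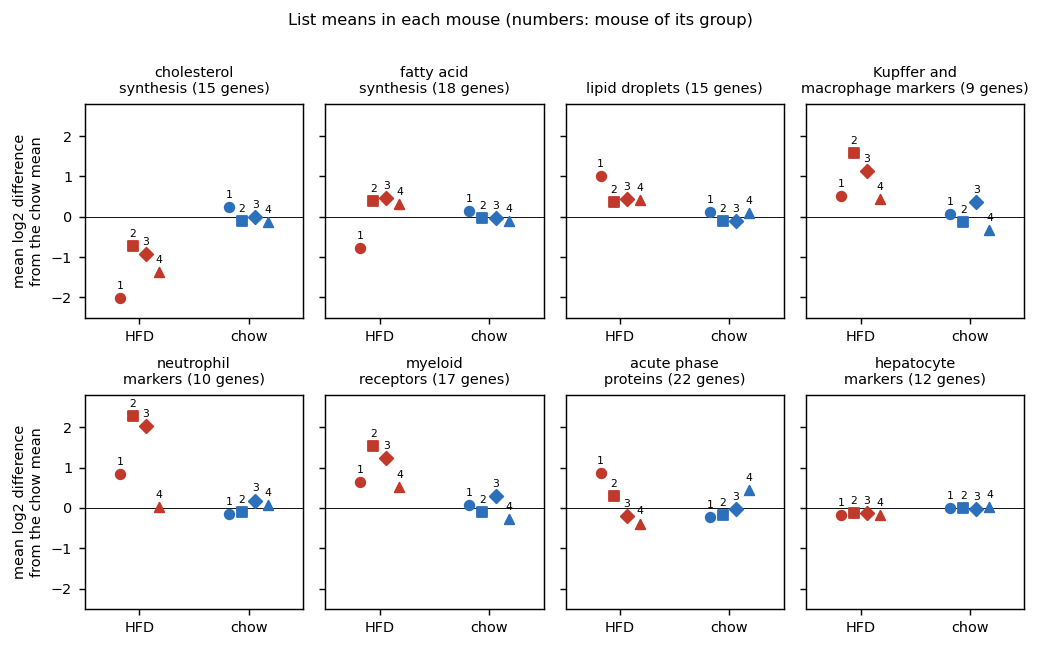
Mean level of each of 8 groups of genes less the chow mean (y axis, log2) on the first array of each HFD mouse and in each chow mouse, with the mouse number beside its point. HFD mice 2 and 3 are highest for neutrophil markers, Kupffer markers and myeloid receptors, and least changed for cholesterol synthesis.

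Annexins and S100 proteins bind calcium and membranes, and 4 of them rose. Anxa2, annexin A2, stood at 10.62, 10.34, 10.04 and 10.10 in HFD livers, against 8.87, 8.95, 8.68 and 8.404 in chow livers (log2 change 1.55, SE 0.15, 2.92-fold higher, adjusted p = 0.00255), with every HFD mouse at least 1 above every chow mouse on the log2 scale, and it was called with any mouse left out. S100a11, a partner of annexins, stood at 8.87, 8.90, 8.23 and 7.96 in HFD livers, against 7.37, 7.46, 7.47 and 7.09 in chow livers (log2 change 1.14, SE 0.20, adjusted p = 0.0192). Anxa3 and Anxa5 changed by 0.80 and 0.62 (adjusted p = 0.0192 and 0.0218). The 4 were of 14 tested, none fell, and the count with 1 mouse left out was 2 to 8, fewest without chow mouse 1 or 4. Lgals3, galectin-3, a lectin of activated macrophages outside the lists, stood at 8.498, 9.62, 9.03 and 7.95 in HFD livers, against 7.39, 6.75, 7.31 and 6.81 in chow livers (log2 change 1.71, SE 0.31, 3.27-fold higher, adjusted p = 0.0196), lost without chow mice 2 or 4 or HFD mouse 3. Vim, vimentin, and Tubb6, a tubulin, rose by 0.76 and 0.68 (adjusted p = 0.043 and 0.0489) of 22 cytoskeletal genes, calls lost without 1 or more of HFD mice 1, 2 or 3 or chow mice 1, 2, 3 or 4 (adjusted p up to 0.132).

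Matrix and cell surface genes gave 4 higher and 1 lower of 28. Gpc1, the heparan sulfate proteoglycan glypican-1, stood at 10.07, 8.14, 8.59 and 9.87 in HFD livers, against 6.32, 6.14, 6.69 and 6.35 in chow livers (log2 change 2.79, SE 0.38, 6.94-fold higher, adjusted p = 0.00716), a call kept with any mouse left out. Esm1, an endothelial proteoglycan, stood at 6.63, 8.14, 6.31 and 6.45 in HFD livers, against 4.36, 5.63, 5.05 and 4.52 in chow livers (log2 change 1.99, SE 0.40, 3.98-fold higher, adjusted p = 0.0243). Axl, a receptor tyrosine kinase for Gas6, stood at 9.32, 9.90, 9.78 and 9.06 in HFD livers, against 8.36, 8.39, 8.79 and 8.04 in chow livers (log2 change 1.12, SE 0.20, adjusted p = 0.0193). Col6a1 rose by 0.54 and Sdc4, syndecan-4, fell by 0.34 on the log2 scale (adjusted p = 0.0452 and 0.0262). The last 4 lost their calls without 1 or more of HFD mice 1, 2, 3 or 4 or chow mice 1, 2, 3 or 4 (adjusted p up to 0.125). The endothelial markers Lyve1 and Esam rose by 0.78 and 0.45 of 9 tested (adjusted p = 0.0288 and 0.0446), lost without 1 or more of HFD mice 1, 2, 3 or 4 or chow mice 1, 3 or 4 (adjusted p up to 0.125).

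Cdkn1a, which encodes the cell cycle inhibitor p21, stood at 7.29, 7.85, 7.23 and 6.55 in HFD livers, against 4.70, 5.85, 6.21 and 5.25 in chow livers (log2 change 1.72, SE 0.34, 3.3-fold higher, adjusted p = 0.0218), with all 4 HFD mice above all chow mice, and its call was lost without chow mice 1 or 4 or HFD mouse 3. It was the 1 call among 17 cell cycle genes. Bik, a pro-apoptotic BH3-only protein, stood at 6.64, 5.95, 6.15 and 6.34 in HFD livers, against 5.58, 5.49, 5.36 and 5.57 in chow livers (log2 change 0.77, SE 0.14, adjusted p = 0.0192), a call kept with any mouse left out, and with Cdkn1a it made up the calls of 16 apoptosis and p53 genes. Ccng1, another p53 target, did not pass (log2 change 0.27, SE 0.10, adjusted p = 0.12).

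Secreted signals included the smallest p of all. Wfdc2, a whey acidic protein of epithelia, stood at 10.79, 10.26, 10.76 and 11.08 in HFD livers, against 8.81, 8.56, 8.80 and 8.86 in chow livers (log2 change 1.96, SE 0.16, 3.9-fold higher, adjusted p = 0.0013), with every HFD mouse more than 1 above every chow mouse on the log2 scale. Inhbe, a liver activin subunit, stood at 8.10, 7.33, 7.27 and 7.10 in HFD livers, against 6.61, 5.60, 6.38 and 6.598 in chow livers (log2 change 1.15, SE 0.26, adjusted p = 0.033), lost without chow mice 1, 2, 3 or 4 or HFD mice 2 or 3. With Fgf21 these made 3 higher of 23 hepatokines, and Igf1 fell. In sphingolipid metabolism 2 of 20 rose. Of the 20, 2 were undetected on every array of 1 diet, Smpd3 among them, so their direction is not separate support. Smpd3, a neutral sphingomyelinase, was undetected on all chow arrays and at least 1.43-fold higher in HFD livers (adjusted p = 0.00716), kept with any mouse left out. Acer2, an alkaline ceramidase, changed by 0.55 (adjusted p = 0.0192), lost without chow mice 1 or 4 or HFD mouse 3.

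Lysosomal genes, iron and heme genes and transcription factors gave 3 calls each, of 25, 30 and 24 tested. Over all genes, 6.42% were called. Psap and Lgmn rose by 0.38 and 0.78 and Mcoln1 fell by 0.35 on the log2 scale among 25 lysosomal genes (adjusted p = 0.0265, 0.0431 and 0.0423). Of 30 iron and heme genes, Hmox1 and Slc40a1 (the iron exporter ferroportin) rose, and Tmprss6, a brake on hepcidin, fell by 0.40 on the log2 scale (adjusted p = 0.0486 for Slc40a1 and 0.0485 for Tmprss6). Suclg1 was the 1 call of 17 citrate cycle genes (change 0.46, adjusted p = 0.043), and Eprs, a tRNA synthetase, the 1 of 29 (change -0.47, adjusted p = 0.0332). Atf5, a stress-response transcription factor, rose by 0.43 beside Pparg, and Bcl6 fell, of 24 transcription factors (adjusted p = 0.0206 for Atf5). All 8 new names in this paragraph lost the call without 1 or more of HFD mice 1, 2, 3 or 4 or chow mice 1, 2, 3 or 4 (adjusted p up to 0.132).

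No gene was called among 58 of the respiratory chain and ATP synthase, 49 cytosolic ribosomal proteins, 28 of the proteasome or 14 of retinoid handling. Changes in the first 3 groups stayed between -0.22 and 0.26, with medians of -0.003, 0.02 and -0.002. The smallest p of these 4 groups were those of Ndufa8 (0.26) and Uqcrc1 (-0.22), Rps7 (0.21) and Rps4x (0.20), Psmb7 (0.24) and Psme1 (-0.22), and Rdh5 (-0.27) and Rdh11 (-0.87), with adjusted p of 0.111, 0.233, 0.195, 0.201, 0.147, 0.155, 0.144 and 0.127. Rdh11, a retinol dehydrogenase, stood at 5.91, 7.57, 7.44 and 6.53 in HFD livers, against 7.85, 7.83, 7.66 and 7.58 in chow livers, with HFD mouse 1 lowest. In the citrate cycle Ogdh did not pass (log2 change -0.20, SE 0.09, adjusted p = 0.224), nor did the synthetase Kars (log2 change -0.30, SE 0.09, adjusted p = 0.0845).

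Most calls, 262 of 421, lay outside the 66 groups. Among the 15 largest rises there, Ly6d, a small GPI-anchored protein, came first: it was undetected on all chow arrays and at least 5.8-fold higher in HFD livers, which stood at 9.21, 7.29, 6.23 and 6.38 against measured values of 4.40, 4.38, 4.67 and 4.30 in chow livers (adjusted p = 0.0209), with HFD mouse 1 highest. Fpr2, a formyl peptide receptor of phagocytes, stood at 6.87, 9.53, 8.18 and 7.27 in HFD livers, against 6.58, 5.64, 6.11 and 5.19 in chow livers (log2 change 2.09, SE 0.52, 4.24-fold higher, adjusted p = 0.044). Klra17 was undetected on all chow arrays and at least 2.6-fold higher in HFD livers (adjusted p = 0.0263), and it too has near-identical copies. Spon2, a secreted matrix protein, stood at 10.03, 11.05, 9.93 and 9.43 in HFD livers, against 8.42, 9.21, 8.69 and 8.20 in chow livers (log2 change 1.48, SE 0.32, adjusted p = 0.0283). Chil1, a chitinase-like glycoprotein, stood at 7.39, 5.70, 5.75 and 5.44 in HFD livers, against 4.92, 4.46, 4.57 and 4.76 in chow livers (log2 change 1.39, SE 0.36, adjusted p = 0.0496), where HFD mouse 1 was far above the others.

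Wfdc17, Ms4a6d, Slamf9, Nckap1l, Myo1f, Gngt2, Ly86 and Ifi30 changed by 1.49, 1.47, 1.33, 1.31, 1.26, 1.24, 1.16 and 1.15. HFD mouse 2 was the highest mouse in all 8. These 8 with Ly6d, Fpr2, Klra17, Spon2 and Chil1 lost the call without 1 or more of HFD mice 1, 2 or 3 or chow mice 1, 2, 3 or 4 (adjusted p up to 0.129). Tmem86a, a lysoplasmalogenase, differed from them: it stood at 8.01, 8.15, 7.70 and 7.65 in HFD livers, against 6.65, 6.44, 6.83 and 6.38 in chow livers (log2 change 1.303, SE 0.14, 2.47-fold higher, adjusted p = 0.00291), and its call was kept with any mouse left out.

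Besides Eci3, Cyp2g1 and Erg28, the 15 largest falls outside the groups included Gpld1, the phospholipase that releases GPI-anchored proteins, at 7.46, 7.16, 6.90 and 6.87 in HFD livers, against 8.26, 7.99, 7.97 and 8.13 in chow livers (log2 change -0.99, SE 0.14, adjusted p = 0.00716). Acvr2b, an activin receptor, stood at 7.15, 6.81, 7.05 and 6.80 in HFD livers, against 7.82, 7.81, 7.90 and 8.16 in chow livers (log2 change -0.97, SE 0.11, adjusted p = 0.00514). Akr1c19, an aldo-keto reductase, and Foxq1, a forkhead factor, changed by -0.78 and -0.79 (adjusted p = 0.0122 and 0.0122). Paxx, a DNA end-joining factor, Mpv17l and Spata2l changed by -1.24, -0.87 and -0.85 (adjusted p = 0.0122, 0.00633 and 0.00841). These 7 were called with any mouse left out. Aldoc (aldolase C), Dct, Bdh2 (a cytosolic ketone dehydrogenase), Nat8f1 and Dclk3 changed by -1.28, -1.06, -1.03, -1.02 and -0.80, and each lost the call without 1 or more of HFD mice 2 or 3 or chow mice 1, 2, 3 or 4 (adjusted p up to 0.119).

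Among the 15 smallest p were 3 further genes. Syt1, a vesicle calcium sensor, stood at 4.99, 4.90, 4.97 and 5.01 in HFD livers, against 5.77, 5.63, 5.47 and 5.69 in chow livers (log2 change -0.67, SE 0.08, adjusted p = 0.00627). Adam11, a catalytically inactive ADAM protein, was undetected on all chow arrays and at least 1.82-fold higher in HFD livers, which stood at 5.78, 5.24, 5.65 and 5.73 against measured values of 4.57, 4.51, 4.37 and 4.76 in chow livers (adjusted p = 0.00627). Miga2, a mitochondrial outer membrane protein that links mitochondria to lipid droplets, stood at 8.74, 8.54, 8.66 and 8.75 in HFD livers, against 8.003, 7.81, 8.12 and 7.91 in chow livers (log2 change 0.71, SE 0.09, adjusted p = 0.00664). In the 3 genes no HFD mouse lay within the chow range, and each was called with any mouse left out. For Adam11 the chow values lay below detection, so their small spread and the direction are not separate support.

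Probes without a gene symbol were fitted in the same model and adjusted on their own. Of 3914, 182 (4.65%) differed, 76 (1.94%) higher and 106 (2.71%) lower in HFD livers. ILMN_2795106 had the smallest p among them, with a log2 change of -1.83 (adjusted p = 0.00387). Its HFD arrays read between 9.40 and 9.70, and its chow arrays between 10.999 and 11.90.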

How the data were processed

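Total RNA from frozen liver was labelled as biotinylated cRNA and hybridised to 1-colour Illumina bead arrays, per the labels' protocols. The first deposited table gives 1 intensity per probe and array, for 25697 probes. These intensities were scaled so that every array has the mean 202, judging from the deposited values, with no background subtracted. The file header also pairs each array with detection p-values, which the authors deposited beside the intensity. A second deposited table holds a z score per probe and array, with mean 0 and SD 1 in each array, used only as an alternative. No other step is given in the sources used here.

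The 16 arrays were background-corrected with the detection p-values and quantile normalized with neqc (limma 3.58.1, R 4.3.3, offset 16). Probes with detection p under 0.01 on at least 4 of 16 arrays were kept, 10550 in all. Of the 25697 probes 16850 have a gene symbol, and 16839 of these were matched by Entrez number to the mouse annotation. Each gene was represented by its brightest kept probe (77 genes had more than 1), giving 6559 genes, and 3914 kept probes have no symbol. HFD and chow were compared with lmFit and eBayes on log2 values of the 8 arrays of 1 chip, with Benjamini-Hochberg adjustment. The other chip was left out because its HFD arrays are of the same 4 mice: same-numbered arrays correlated at 0.881, 0.883, 0.735 and 0.854 in their deviations from the group means. Since HFD and chow mice each lie on this 1 chip, no difference between chips enters the comparison. An effect of array position within the chip was not tested, and batches of extraction are not given.

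The 66 groups of genes and the members were chosen with earlier results of these data known. Named are group members past the threshold, the 2 smallest p of a group with fewer than 2 calls (cholangiocyte and red cell markers in part), the 15 largest rises and 15 largest falls outside the groups among calls whose arrays do not overlap, and the 15 smallest p. The number of arrays limits precision.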

Additional observations from a re-analysis of the deposited data

Results flagged for a closer look

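In 29 cases 1 mouse of a group of 4 stood far from the other 3. The measure is its gap to the nearest of them over the range of the 4, against Dixon's 95% critical value, in 576 sets of 4 values, 456 for single genes and 120 for group means. For independent and unselected sets, chance puts about 1 in 20 past that value, or about 29 of the 576. Here most genes were named by their results, and genes and group means of 1 mouse vary together. The count therefore cannot decide whether the cases exceed chance.

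HFD mouse 1 was the one apart most often. It was lowest for Stard4 (0.880), Mthfd1 (0.852) and Slc38a3 (0.917), and highest for Plin4 (0.889) and Chil1 (0.843). Its mean was lowest over fatty acid synthesis (0.876), and highest over lipid droplets (0.861), PPAR gamma and fatty acid uptake (0.900), ketogenesis (0.991) and ER chaperones (0.896). In levels over chow, its fatty acid synthesis mean was -0.78 against 0.32 to 0.47 in the other HFD mice, and its droplet mean was 1.002 against 0.36 to 0.45.

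Among the other HFD mice, mouse 2 was lowest for Akr1c19 (0.833). Mouse 3 was lowest for Lyve1 (0.846) and Slc35a1 (0.890). Mouse 4 was lowest for Insig2 (0.904) and Ccl6 (0.926). Among chow mice, mouse 1 was highest for Dhcr7 (0.869), Mogat1 (0.845) and Klra17 (0.863) and lowest for Cbs (0.954), with the highest pericentral mean (0.948) and the lowest apoptosis mean (0.921). Chow mouse 2 was highest for Fos (0.863) and in the periportal mean (0.843). Chow mouse 3 was highest for Fcgr3 (0.916) and Oas1g (0.853) and lowest for Gsta4 (0.841). Chow mouse 4 was lowest for Scd1 (0.938) and Eci3 (0.957) and highest for Nfkbiz (0.949).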

How the results depend on the processing

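With 1 mouse left out, 97 to 507 genes differed (421 with all), 38 to 281 higher and 59 to 226 lower. Signals as scaled by the authors gave 236 (121 higher, 115 lower), deposited z scores 266 (115 and 151), no detection filter 123 of 16538 genes tested (47 and 76), array weights 692 (365 and 327) and leaving out HFD mice 2 and 3, chosen after the data were seen, 79 (41 and 38). The cause of these differences was not tested. The other 7 settings gave 367 to 546 genes, and 2 of them took the spread from all 16 arrays, the second HFD arrays included. Of the 192 called genes named, 49 were called in all 12 settings other than leaving out a mouse, 40 of them also with each mouse left out, and none changed direction. HFD and chow arrays share replicate numbers, and same-numbered arrays correlated at 0.0138, 0.0898, 0.227 and 0.245 in their deviations. Differently numbered arrays correlated at -0.337 to 0.2. These few correlations cannot decide whether the numbers pair mice, and the main fit used no pairing. Not every array correlated best with its own number. The replicate block gave 533 calls, 301 higher and 232 lower, and kept 177 of the 192. Dim probes, undetected on all chow arrays for 19 called genes and on all HFD arrays for 4, limit folds to bounds. Such genes passed the detection filter only through other arrays, so their direction is not separate support in any group counted above.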
